A study of Mus musculus with 8 samples.

Results

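BAFF and APRIL are cytokines of the TNF family that keep mature B cells and plasma cells alive, and the genes described here are those of the ligands, Tnfsf13b (BAFF) and Tnfsf13 (APRIL), and of their receptors, Tnfrsf13b (TACI), Tnfrsf13c (the BAFF receptor) and Tnfrsf17 (BCMA). Members were the probe sets annotated to exactly 1 of these 5 genes among the 45101 probe sets of the array. Of the 5 genes, 4 had a probe set of their own, 6 probe sets in all, of which 5 passed a filter at the median intensity of the array (11.9) that left 22518 probe sets and 11988 genes for testing. Tnfsf13 was read only by 1 probe set that the annotation also gives to Tnfsf12 and to Tnfsfm13, the transcript that joins these neighbouring genes, so its values are given below as those of a shared probe set and not as APRIL. A gene with several probe sets was represented by the brightest.

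The arrays read RNA from Peyer's patches, which are clusters of lymphoid follicles in the small intestine, of 8 C3H/Hej mice, 1 array per mouse. Ovalbumin (OVA), the main egg white protein and a common experimental allergen, was given by gavage to 6 of them at 40 mg/kg per day for 28 days from 6 weeks of age, and the other 2 received the saline vehicle on the same schedule. Both sexes were in each arm: female 7 and male 8 were the controls, females 2 and 12 and males 1, 5, 8 and 13 received OVA. All groups share the strain, whose Tlr4 receptor cannot sense bacterial lipopolysaccharide, and the labels state no readout of allergy for the mice and do not say whether a sample is the RNA of 1 patch or of several.

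The deposited intensities ran from 1.86 to 14749, and array trimmed means spanned 65.1 to 68.2. Precision is limited by how few arrays there are, and with a single control of each sex the spread among controls is barely measured. The extraction text of the labels speaks of cortex from a patient, against the labelled tissue. All 14 B cell markers with a probe set passed the filter (median intensity 466), and 5 of 13 neuron and glia markers did (median intensity 8.30). Female OVA 12 and male OVA 8 stood apart from the other 6 arrays in B cell content. Their means over the 14 B cell markers, none of which is a ligand or receptor described here, were 8.92 and 9.03 on the log2 scale, against 7.95 to 8.40 on the other 6 arrays. OVA differences of the members are given with and without them. In tissue RNA, fewer cells of a type and less RNA per cell cannot be told apart.

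BAFF is made mainly by myeloid and stromal cells, including those of lymphoid follicles, and APRIL by myeloid cells and, in the gut, by epithelium. BAFF binds all 3 receptors, and its survival signal to resting mature B cells runs through the BAFF receptor to the alternative NF-kB pathway. APRIL binds TACI and BCMA. TACI takes part in switching to IgA without T cell help, and BCMA is a receptor of plasma cells, so this system is usually discussed in Peyer's patches for its part in IgA responses.

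Among these genes the BAFF receptor had the largest OVA difference and was higher on all 6 OVA arrays than on either control. TACI was higher on 5 of 6, a difference that was close to 0 without female OVA 12 and male OVA 8. The brightest probe set of the BAFF ligand varied less across mice than most probe sets did. BCMA, the plasma cell receptor, had an OVA mean slightly below the control mean. None of the members passed limma after Benjamini-Hochberg adjustment over all probe sets, and neither did any other probe set (0 of 22518, 0%). At an unadjusted p under 0.05, 1550 probe sets were higher (6.88%) and 974 lower (4.33%), and among the 4 genes with a probe set of their own, the BAFF receptor alone had such a p.

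**Figure D1:**
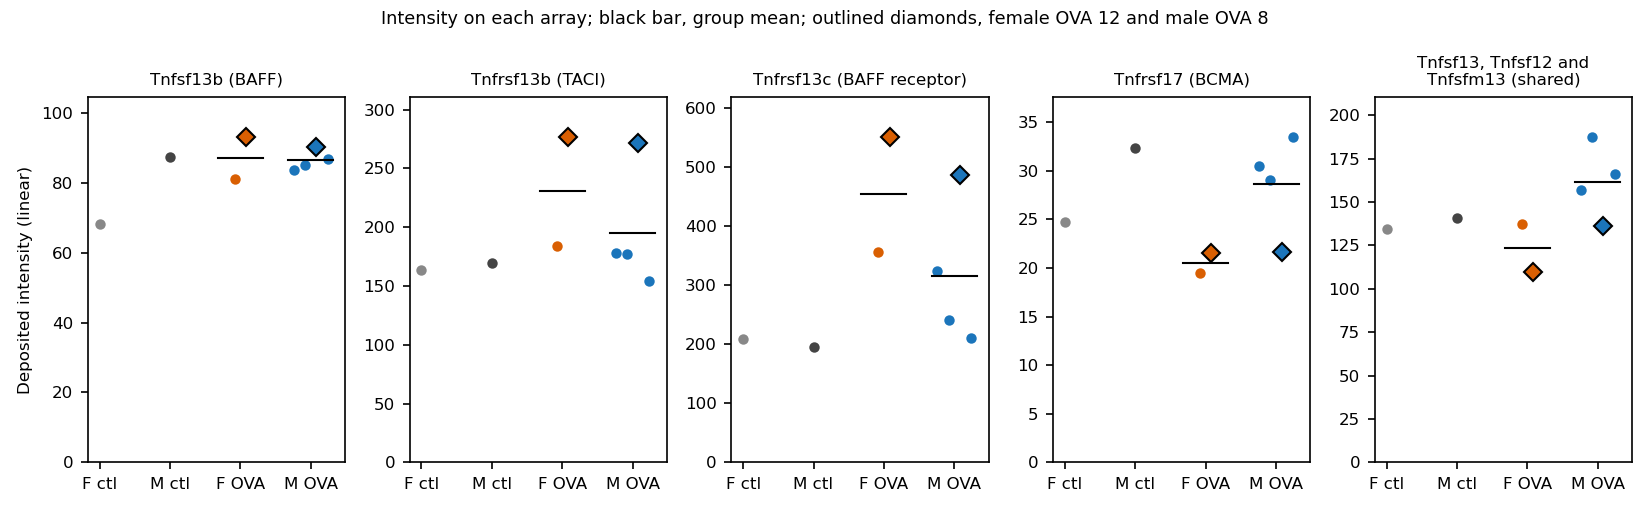
Deposited intensity (linear scale, axis from 0) of Tnfsf13b, Tnfrsf13b, Tnfrsf13c, Tnfrsf17 and the probe set shared by Tnfsf13, Tnfsf12 and Tnfsfm13 on each of the 8 arrays by group, with a black bar at the mean of groups of more than 1 array and outlined diamonds for female OVA 12 and male OVA 8. Tnfrsf13c lies between 210.5 and 552 in OVA mice, above both controls, and Tnfsf13b between 68.3 and 93.2 on all arrays.

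Tnfsf13b encodes BAFF, the ligand of all 3 receptors. Its brightest probe set read 68.3 in the female control and 87.5 in the male control. It read 81.1 and 93.2 in female OVA 2 and 12, and 83.6, 85.0, 90.2 and 86.9 in male OVA 1, 5, 8 and 13. The female control was the lowest array, the male control lay within the OVA range, and 2 of 6 OVA arrays were above both controls and none below. Controls averaged 77.9 ± 13.6 (SD, n = 2) and OVA mice 86.7 ± 4.43 (SD, n = 6), a log2 difference of 0.14 ± 0.11 (SE; limma adjusted p = 0.626) with a 95% interval from -0.11 to 0.39. Within females the difference from the female control was 0.33 ± 0.14 (SE), and within males the difference from the male control was -0.017 ± 0.12 (SE). The highest array was 1.37 times the lowest, and 68.3% of all tested probe sets had a wider range. The difference was 0.071 ± 0.10 (SE) without female OVA 12 and male OVA 8. A second, dimmer probe set of the gene read 17.2 and 17.6 in controls and from 12.8 to 27.4 in OVA mice, highest in male OVA 8, with a log2 difference of -0.0093 ± 0.21 (SE). Its highest array was 2.14 times its lowest, a range that 17.0% of tested probe sets exceeded. The third probe set was below the filter on all arrays (3.89 to 5.37). Identical values occurred on 2 arrays for the second probe set and on 3 for the third.

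The shared probe set of Tnfsf13, Tnfsf12 and Tnfsfm13 can hold transcripts of APRIL, of TWEAK (Tnfsf12, a TNF family cytokine with a receptor of its own) and of the joined gene. It read 134.5 and 141 in the female and male controls, 137.1 and 109.5 in female OVA 2 and 12, and 157, 188, 136 and 166 in male OVA 1, 5, 8 and 13. The groups overlapped, with 3 OVA arrays above both controls, 1 below and 2 between them. The log2 difference was 0.041 ± 0.15 (SE; limma adjusted p = 0.924), with a 95% interval from -0.30 to 0.38. It was -0.13 ± 0.20 (SE) within females, 0.18 ± 0.19 (SE) within males and 0.17 ± 0.12 (SE) without female OVA 12 and male OVA 8. The 2 neighbours at this locus were looked at after the values were seen. Tnfsf13os, an antisense transcript of the locus, read 119 and 111 in controls, 91.7 and 66.5 in female OVA mice and 178, 196, 94.9 and 158 in male OVA 1, 5, 8 and 13. Its order of arrays resembled that of the shared probe set (r = 0.94 over 8 arrays, exact permutation p = 0.000967; rho = 0.81, exact permutation p = 0.0218), with r = 0.86 without the 2 arrays farthest from the median. The other probe set of Tnfsfm13 and Tnfsf12, which is not annotated to Tnfsf13, lay between 21.5 and 29.6 on all arrays and had r = -0.46 with the shared one (exact permutation p = 0.253; rho = -0.50, exact permutation p = 0.216), and r = -0.21 without the 2 farthest arrays. These 2 relations were not adjusted for their number.

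Tnfrsf13c encodes the BAFF receptor, the receptor through which BAFF sustains resting B cells. It read 208 in the female control and 196 in the male control. The female OVA mice 2 and 12 read 356 and 552, and male OVA 1, 5, 8 and 13 read 324, 240, 487 and 210.5. All 6 OVA arrays were above both controls, male OVA 13 by the least, and female OVA 12 and male OVA 8 were the highest. Such a separation held for 1882 of the 22518 tested probe sets (8.36%). Controls averaged 202 ± 8.78 (SD, n = 2) and OVA mice 362 ± 135 (SD, n = 6), which is a log2 difference of 0.81 ± 0.31 (SE; limma unadjusted p = 0.0285, adjusted p = 0.413) or 1.76-fold, with a 95% interval from 0.11 to 1.52. The spread among OVA mice was wide, since male OVA 13 was 0.057 above the control mean on the log2 scale and female OVA 12 was 1.43 above it. Of all tested probe sets, 2.57% varied over a wider range across the arrays.

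Without female OVA 12 and male OVA 8 the log2 difference of the BAFF receptor was 0.52 ± 0.19 (SE; limma unadjusted p = 0.0338, adjusted p = 0.472). Within females, with 1 control, it was 1.07 ± 0.35 (SE), and within males 0.60 ± 0.45 (SE). The test of the difference between these effects gave 0.47 ± 0.65 (SE; limma adjusted p = 0.898), with a 95% interval from -1.05 to 2.00, and 0.16 without female OVA 12. The female OVA mean was 454 ± 138 (SD, n = 2) and the male OVA mean 315.5 ± 124 (SD, n = 4), and these groups overlapped.

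Tnfrsf13b encodes TACI, which binds both ligands and is found on activated and marginal zone B cells. It read 164 and 170 in the female and male controls, 184 and 277 in female OVA 2 and 12, and 178, 177, 272 and 155 in male OVA 1, 5, 8 and 13. On 5 of the 6 OVA arrays it was above both controls, and in male OVA 13 it was below both. Female OVA 12 and male OVA 8 were far above the rest, and without them the OVA values reached no more than 184. Controls averaged 167 ± 3.95 (SD, n = 2) and OVA mice 207 ± 53.1 (SD, n = 6), a log2 difference of 0.30 ± 0.23 (SE; limma adjusted p = 0.609), with a 95% interval from -0.22 to 0.81. Without these 2 arrays the difference was 0.066 ± 0.11 (SE; limma adjusted p = 0.866).

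Tnfrsf17 encodes BCMA, which is induced as B cells become plasma cells. It was dim, at 24.7 in the female control and 32.3 in the male control. It read 19.5 and 21.5 in female OVA 2 and 12, and 30.5, 29.1, 21.6 and 33.5 in male OVA 1, 5, 8 and 13. The groups overlapped, with 3 OVA arrays below both controls, 1 above and 2 between. Controls averaged 28.5 ± 5.37 (SD, n = 2) and OVA mice 25.9 ± 5.80 (SD, n = 6), a log2 difference of -0.19 ± 0.14 (SE; limma adjusted p = 0.607), with a 95% interval from -0.52 to 0.14. It was -0.14 ± 0.11 (SE) without female OVA 12 and male OVA 8. Females read lower than males within each treatment. The log2 difference of females from males was -0.37 ± 0.13 (SE; limma unadjusted p = 0.0176, adjusted p = 0.901), and male OVA 8 was the only male within the female range of 19.5 to 24.7. An unadjusted p under 0.05 in this contrast occurred for 3.97% of tested probe sets on the lower side and 1.44% on the higher, and 12 probe sets (0.0533%) passed after adjustment, none of them a member.

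For the other members no difference between the sexes passed. Females minus males gave 0.43 ± 0.28 (SE) for the BAFF receptor (0.19 without female OVA 12), 0.16 ± 0.20 (SE) for TACI, -0.085 ± 0.10 (SE) for BAFF and -0.29 ± 0.13 (SE; limma unadjusted p = 0.0572) for the shared probe set. The limma adjusted p of these 4 differences was 0.901 to 0.934. How far the OVA effect differed between females and males was estimated at 0.35 ± 0.19 (SE) for BAFF, 0.29 ± 0.48 (SE) for TACI, -0.062 ± 0.30 (SE) for BCMA and -0.31 ± 0.29 (SE) for the shared probe set, with limma adjusted p of 0.689 to 0.977. No probe set passed this test with limma (0 of 22518, 0%), and 1234 had an unadjusted p under 0.05 on the higher side (5.48%) and 612 on the lower (2.72%).

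**Figure D2:**
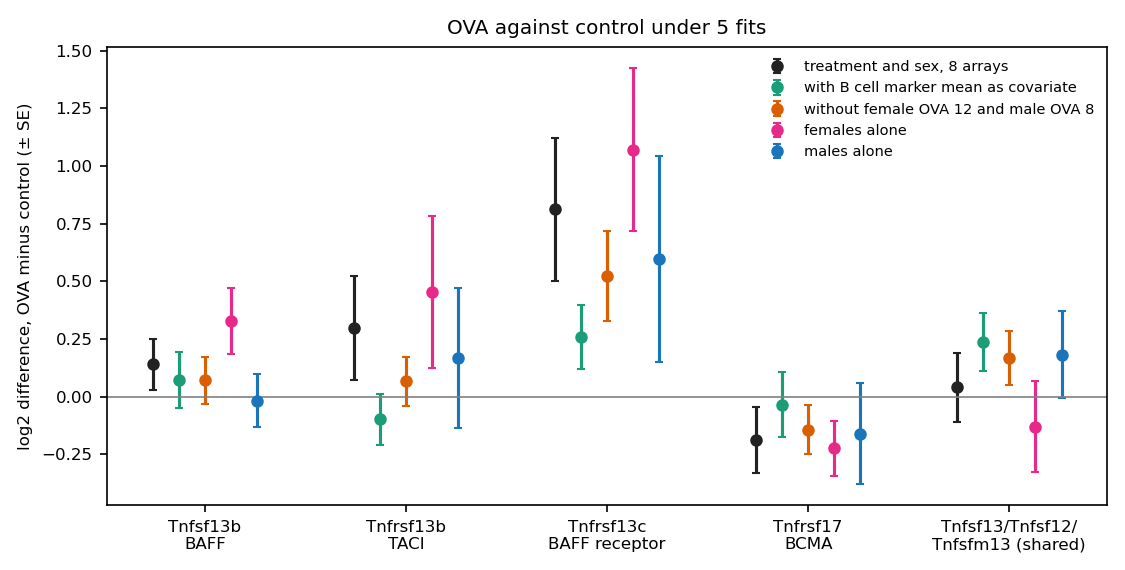
Log2 difference of OVA from control (points, with bars of 1 SE) for the 4 genes and the shared probe set in 5 limma fits, which are all 8 arrays with sex as covariate, the same with the B cell marker mean added, the fit without female OVA 12 and male OVA 8, and females or males alone. The BAFF receptor is above 0 in all 5, from 0.26 to 1.07, and TACI goes from 0.30 to -0.098 once the B cell marker mean is in the fit.

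The receptors on mature B cells varied with the level of B cell transcripts. Across the 8 arrays the BAFF receptor and the B cell marker mean had r = 0.95 (exact permutation p = 0.000818, adjusted p = 0.0131) and rho = 0.93 (exact permutation p = 0.00223, adjusted p = 0.0357). For TACI the values were r = 0.97 (exact permutation p = 0.00221, adjusted p = 0.0177) and rho = 0.88 (exact permutation p = 0.00724, adjusted p = 0.0386). Without female OVA 12 and male OVA 8, the arrays farthest from the median, r was 0.88 for the BAFF receptor (exact permutation p = 0.0111, adjusted p = 0.0593) and 0.70 for TACI (exact permutation p = 0.118, adjusted p = 0.212). Over these 6 arrays neither relation passed after adjustment. Within the 6 OVA arrays r was 0.93 and 0.98, both with an adjusted p of 0.122. These values belong to a family of 16 relations of 4 genes with 4 marker means.

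The relations of BCMA and BAFF with the B cell markers did not pass after adjustment. BCMA had r = -0.61 with the B cell marker mean (exact permutation p = 0.122, adjusted p = 0.326; rho = -0.67, exact permutation p = 0.0831, adjusted p = 0.19), and r = -0.29 without the 2 farthest arrays. With the mean of 11 plasma cell markers it had r = 0.69 (exact permutation p = 0.0173, adjusted p = 0.0691) and rho = 0.67 (exact permutation p = 0.0831, adjusted p = 0.19), and r = 0.62 without the 2 farthest arrays. That marker mean itself spanned only 8.49 to 8.71 on the log2 scale. BAFF had r = 0.53 with the B cell markers (exact permutation p = 0.18, adjusted p = 0.397; rho = 0.31, exact permutation p = 0.462, adjusted p = 0.616) and r = 0.051 without the 2 farthest arrays. Within the 6 OVA arrays r between BAFF and the B cell markers was 0.74 (exact permutation p = 0.108, adjusted p = 0.289). With the mean of 10 myeloid markers the Pearson and rank values of BAFF differed, at r = 0.41 (exact permutation p = 0.264, adjusted p = 0.432) and rho = 0.88 (exact permutation p = 0.00724, adjusted p = 0.0386). Without female OVA 2 and male OVA 5, the 2 farthest arrays, r was 0.91 (exact permutation p = 0.00139, adjusted p = 0.0222), and within the 6 OVA arrays 0.84 (exact permutation p = 0.0306, adjusted p = 0.163). The myeloid mean lay at 7.11 and 7.18 in controls and from 6.90 to 7.21 in OVA mice. The myeloid marker Itgam and the neutrophil genes S100a8 and S100a9 had means below the filter and are not part of it. Of the epithelium relations, TACI had r = -0.81 (exact permutation p = 0.014, adjusted p = 0.0691) and the BAFF receptor r = -0.74 (exact permutation p = 0.0334, adjusted p = 0.107), with rho of -0.69 and -0.79 (exact permutation p = 0.0694 and 0.0279, adjusted p = 0.19 and 0.112), and r without male OVA 5 and 8 of -0.89 and -0.96. The remaining 8 relations had an adjusted p of 0.397 or more for r.

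**Figure D3:**
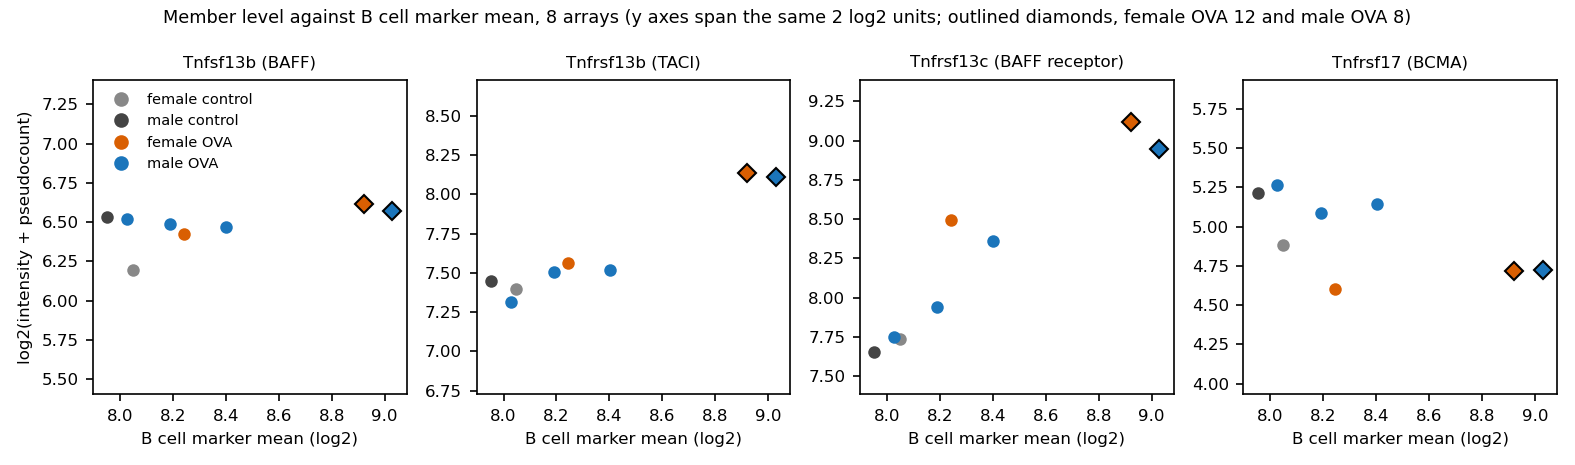
Level of each gene as log2(intensity + 4.88) against the mean log2 value of the B cell markers on the 8 arrays, coloured by group, with outlined diamonds for female OVA 12 and male OVA 8. The BAFF receptor climbs along the whole range (r = 0.95), TACI stands well above its other values on the 2 outlined arrays (r = 0.97 with them and 0.70 without), BAFF has r = 0.53 and BCMA r = -0.61.

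Values relative to the B cell markers were then compared, and none of them passed after adjustment. The B cell marker mean of controls was 8.00 ± 0.068 (SD, n = 2) and that of OVA mice 8.47 ± 0.41 (SD, n = 6). The BAFF receptor minus this mean was -0.31 and -0.30 in the controls. It was 0.25 and 0.20 in female OVA 2 and 12, and -0.039, -0.25, -0.087 and -0.28 in male OVA 1, 5, 8 and 13. All 6 OVA arrays were above both controls, a separation that 25 of the 22518 tested probe sets showed (0.111%) and that is rare by construction, since the subtracted mean was itself higher in OVA mice. The difference was 0.27 (exact permutation p = 0.107, adjusted p = 0.268 over 5 probe sets, where 0.0357 is the smallest p that the 28 splits allow), and 0.23 without female OVA 12 and male OVA 8.

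TACI minus the B cell marker mean was -0.65 and -0.51 in the controls, -0.68 and -0.78 in female OVA 2 and 12, and -0.88, -0.68, -0.92 and -0.71 in male OVA 1, 5, 8 and 13. All 6 OVA arrays were below both controls, as for 22.6% of tested probe sets, and the difference was -0.20 (exact permutation p = 0.0714, adjusted p = 0.268). For BCMA the difference was -0.60 (exact permutation p = 0.25, adjusted p = 0.417), for BAFF -0.31 (exact permutation p = 0.357, adjusted p = 0.446) and for the shared probe set -0.38 (exact permutation p = 0.536, adjusted p = 0.536), and in each of these OVA and control arrays overlapped. Without female OVA 12 and male OVA 8 these 3 differences were -0.24, -0.10 and 0.0029, and that of TACI was -0.16. Leaving out 1 array at a time, BCMA ran from -0.81 (without female control 7) to -0.38 (without male control 8), BAFF from -0.53 to -0.098 for the same arrays, the shared probe set from -0.50 to -0.21 (without female OVA 12) and TACI from -0.27 to -0.13 (without male control 8). With the B cell marker mean added to treatment and sex in limma, the OVA difference was 0.26 ± 0.14 (SE; adjusted p = 0.741) for the BAFF receptor and -0.098 ± 0.11 (SE; adjusted p = 0.87) for TACI. It was -0.035 ± 0.14 (SE) for BCMA, 0.071 ± 0.12 (SE) for BAFF and 0.24 ± 0.13 (SE) for the shared probe set. None of the 14 B cell markers had a larger OVA difference than the BAFF receptor (0.81). Theirs ran from 0.011 for Pax5, the B cell identity factor, to 0.63 for Cd79a, a signalling chain of the B cell receptor, with a median of 0.57. Among the germinal centre markers, a separate list, Rgs13 (1.13), Neil1 (0.90) and Gcsam (0.85) had larger differences than the BAFF receptor. The other germinal centre markers had smaller ones.

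The pairs of members were also compared directly, through the OVA effect on the log2 ratio of each pair, a test added after the values were seen. TACI minus the BAFF receptor gave -0.47, with all 6 OVA arrays below both controls (exact permutation p = 0.0357, the smallest possible, and adjusted p = 0.214 over 6 pairs). Male OVA 5 and 13 had the smallest departure from the control mean, both at -0.16, and female OVA 12 the largest at -0.71. How often the ratios of other probe sets separate the groups in this way was not counted, so no conclusion is drawn from the separation. The BAFF receptor minus BCMA gave 0.87, the widest of the 6 differences (exact permutation p = 0.179, adjusted p = 0.375). BAFF minus the BAFF receptor gave -0.59 (exact permutation p = 0.214, adjusted p = 0.375). No pair passed after adjustment. These 3 differences were -0.39, 0.47 and -0.33 without female OVA 12 and male OVA 8, with adjusted p of 0.667 (exact permutation). With those arrays left out the splits are too few for any p under 0.05, so that test could not have passed. Across arrays the BAFF receptor and TACI had r = 0.92 (exact permutation p = 0.000521, adjusted p = 0.00313 over 6 pairs) and rho = 0.90 (exact permutation p = 0.00456, adjusted p = 0.0274). Without female OVA 12 and male OVA 8 r was 0.78 (exact permutation p = 0.075, adjusted p = 0.45), and within the 6 OVA arrays it was 0.94 (exact permutation p = 0.00139, adjusted p = 0.00833). BCMA had r = -0.73 with the BAFF receptor (exact permutation p = 0.0485, adjusted p = 0.145) and rho = -0.71 (exact permutation p = 0.0576, adjusted p = 0.115), with r = -0.59 without the 2 farthest arrays.

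As a description, the RefSeq windows of the 250 bases before the start sites of the receptor genes are shown here (build GRCm38.p6, written 5′ to 3′ on the gene's strand). Any link between these sequences and the levels of the genes was not tested. Capitals mark matches to any of 7 motifs on either strand, none of which overlapped. The motifs were GGGA and CC with any 4 bases between them for NF-kB, GAGGAA for PU.1 and SpiB, GGAAGT for other ETS factors, CCCNNGGG for EBF, CAGGTG for E2A, ATGCAAAT for octamer factors and GAAA repeated after any 2 bases for IRF factors.
Tnfrsf13c, minus strand, chr15:82224381-82224630: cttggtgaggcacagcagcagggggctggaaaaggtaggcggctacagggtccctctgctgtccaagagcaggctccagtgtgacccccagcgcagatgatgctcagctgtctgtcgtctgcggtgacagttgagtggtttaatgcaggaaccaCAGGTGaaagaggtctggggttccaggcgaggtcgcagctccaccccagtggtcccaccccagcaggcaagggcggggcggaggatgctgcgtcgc
Tnfrsf13b, plus strand, chr11:61126505-61126754: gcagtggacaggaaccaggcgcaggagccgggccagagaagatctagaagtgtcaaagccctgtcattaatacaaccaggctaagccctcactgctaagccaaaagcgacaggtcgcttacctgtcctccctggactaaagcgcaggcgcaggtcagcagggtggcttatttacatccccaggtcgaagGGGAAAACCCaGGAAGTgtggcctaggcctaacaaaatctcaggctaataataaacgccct
Tnfrsf17, plus strand, chr16:11313559-11313808: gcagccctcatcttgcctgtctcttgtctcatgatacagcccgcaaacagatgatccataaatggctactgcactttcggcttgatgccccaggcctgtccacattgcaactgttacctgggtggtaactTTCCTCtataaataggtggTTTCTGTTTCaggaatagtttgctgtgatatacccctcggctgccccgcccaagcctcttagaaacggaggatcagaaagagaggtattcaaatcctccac

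The Tnfrsf13c window held 1 match, to the E2A motif, from 96 to 91 bases before the start, and such a match was present in 17.3% of the 32536 different windows of this length. The Tnfrsf13b window held an NF-kB match from 61 to 52 bases before the start (17.7% of windows) and an ETS match from 50 to 45 bases before it (19.8%). In the Tnfrsf17 window a PU.1 match lay on the opposite strand from 120 to 115 bases before the start (23.4%), and an IRF match on the opposite strand from 101 to 92 bases before it (2.98%). The 3 windows shared no motif among these. Their GC content was 63.2%, 54% and 49.2% in this order, with a median of 52.4% over all windows. A match describes letters in the window and not binding. All 5 genes had a window, and those of the ligands are not shown. A Tnfsf13b window also held an IRF match, from 16 to 7 bases before the start, so this motif was not confined to Tnfrsf17. The Tnfsf13 window held an EBF match from 13 to 6 bases before the start (11.9% of windows).

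The transcripts most like each member over the 8 arrays were ranked among 11987 other genes (11988 for the shared probe set) by Pearson r, as a description. For the BAFF receptor these were Rbm17 (r = 0.996), a splicing factor, Nip7 (0.991), which acts in ribosome assembly, Pmepa1 (0.990), Ctdp1 (0.989) and the kinase Vrk1 (0.989), and the most opposite were Lpin2 (-0.991) and Fam114a2 (-0.987). For TACI they were Klf2 (0.995), a transcription factor of resting lymphocytes, the haematopoietic adaptor Hcls1 (0.991), Sema4d (0.990), Adam9 (0.990) and Filip1l (0.990), with Mpp1 (-0.985) and Myrfl (-0.980) opposite. BCMA was most like Qdpr (0.984), Epn1 (0.968), Tbc1d32 (0.961), Rps4l (0.959) and Sipa1l3 (0.956), and most opposite to Wdr26 (-0.962) and Tbl3 (-0.957). BAFF was most like Acad9 (0.976), Smo (0.965), Tpst2 (0.962), Ubxn11 (0.957) and Cerox1 (0.956), and most opposite to Plin5 (-0.967) and Tlcd3b (-0.959). The shared probe set was most like Vwce (0.985), Prrx1 (0.979), Dbi (0.975), Cyp2d26 (0.970) and Selenoi (0.970), with Psmb3 (-0.979) and Pttg1 (-0.970) opposite. The median r with the B cell markers was 0.90 for the BAFF receptor and 0.93 for TACI, against -0.57 for BCMA and 0.49 for BAFF. With the 7 germinal centre markers it was 0.90, 0.85, -0.62 and 0.44 in the same order, and with the plasma cell markers -0.29, -0.30, 0.43 and 0.0047. T cell markers gave 0.83, 0.81, -0.44 and 0.35, so high values for the BAFF receptor and TACI were not confined to B cell genes. Epithelium markers gave -0.66, -0.73, 0.45 and -0.40. Myeloid markers gave -0.14, 0.024, 0.40 and 0.24, so for BAFF the median was lower than with the B cell markers.

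A further 5 lists covered the steps around these receptors, and over all 22518 tested probe sets the median OVA difference was 0.023, with 54.5% above 0. Of 22 measured genes of BAFF receptor and NF-kB signalling, 16 were higher and 6 lower (median 0.15), and none passed limma after adjustment. Tnfaip3, a deubiquitinase that restrains NF-kB, averaged 176 ± 4.63 (SD, n = 2) without OVA and 236 ± 32.6 (SD, n = 6) with it, at a log2 difference of 0.40 ± 0.15 (SE; limma adjusted p = 0.413), above both controls on all 6 OVA arrays. The B cell PI3K adaptor Pik3ap1 was also above both controls on all 6 (0.51 ± 0.28, SE), as 8.36% of tested probe sets were. Rel, an NF-kB subunit of lymphocytes, was at 0.23 ± 0.13 (SE). Of the alternative pathway that BAFF drives, Map3k14 (NIK, its starting kinase) was at 0.37 ± 0.22 (SE), Nfkb2 at 0.11 ± 0.14 (SE) and Relb at -0.17 ± 0.14 (SE), 3 genes named after their values were seen.

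In the BCL2 family and survival kinases, 9 of 14 measured genes were higher and 5 lower (median 0.049). Pmaip1, the pro-apoptotic Noxa, had the smallest p (0.35 ± 0.12, SE; limma adjusted p = 0.409), ahead of Bbc3, the pro-apoptotic Puma (0.23 ± 0.11, SE), and Bcl2, which protects B cells from death (0.31 ± 0.15, SE). All 3 were above both controls on all 6 OVA arrays, as 8.36% of tested probe sets were. They were named for their small p, which favours such a separation. For Bcl2, 2 of 4 other probe sets had the opposite sign. Of 13 genes of ligand processing, receptor shedding and proteoglycans, 5 were higher and 8 lower (median -0.0048). Sdc1, syndecan-1, a heparan sulfate carrier that binds APRIL and also marks plasma cells (it is among the 11 plasma cell genes) and epithelium, averaged 257.5 ± 40.6 (SD, n = 2) without OVA and 176 ± 28.3 (SD, n = 6) with it, at a log2 difference of -0.55 ± 0.17 (SE; limma adjusted p = 0.396). Ext1, which builds heparan sulfate chains, was at -0.40 ± 0.17 (SE) and the gamma-secretase subunit Aph1a at -0.25 ± 0.10 (SE). All 3 were below both controls on all 6 OVA arrays, as 5.01% of tested probe sets were. The mean of the 14 epithelium markers was 11.23 and 11.25 in controls and 10.67 to 11.23 in OVA mice, with all 14 genes lower, and its part in these differences was not tested. Furin, the protease that frees both ligands, had the same deposited value in both controls (92.5) and an OVA mean of 93.0 ± 7.69 (SD, n = 6).

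Of 13 measured genes of IgA switching, 8 were higher and 5 lower (median 0.16). Batf, a transcription factor needed for class switching, was at 0.65 ± 0.16 (SE; limma adjusted p = 0.355) and Runx3, a factor of IgA switching, at 0.45 ± 0.22 (SE). Aldh1a2, which makes retinoic acid, was at -0.41 ± 0.17 (SE) and lay below both controls on 5 OVA arrays. The switching inducers Nos2, Tslp and Il6 were below the filter, with highest values of 11.2, 5.54 and 3.73. Of 21 other TNF family genes of lymphocytes, 13 were higher and 8 lower (median 0.19). Among them the lymphotoxin alpha gene Lta was at 0.87 ± 0.23 (SE; limma adjusted p = 0.371). The lymphotoxin beta receptor gene Ltbr was at -0.39 ± 0.13 (SE) and the costimulator Tnfrsf4 (OX40) at 0.34 ± 0.12 (SE). None of these genes passed after adjustment. Of the 83 genes in the 5 lists past the filter, 11 had an unadjusted p under 0.05, 6 higher and 5 lower, beside 766 higher and 458 lower among all 11988 genes tested.

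**Figure D4:**
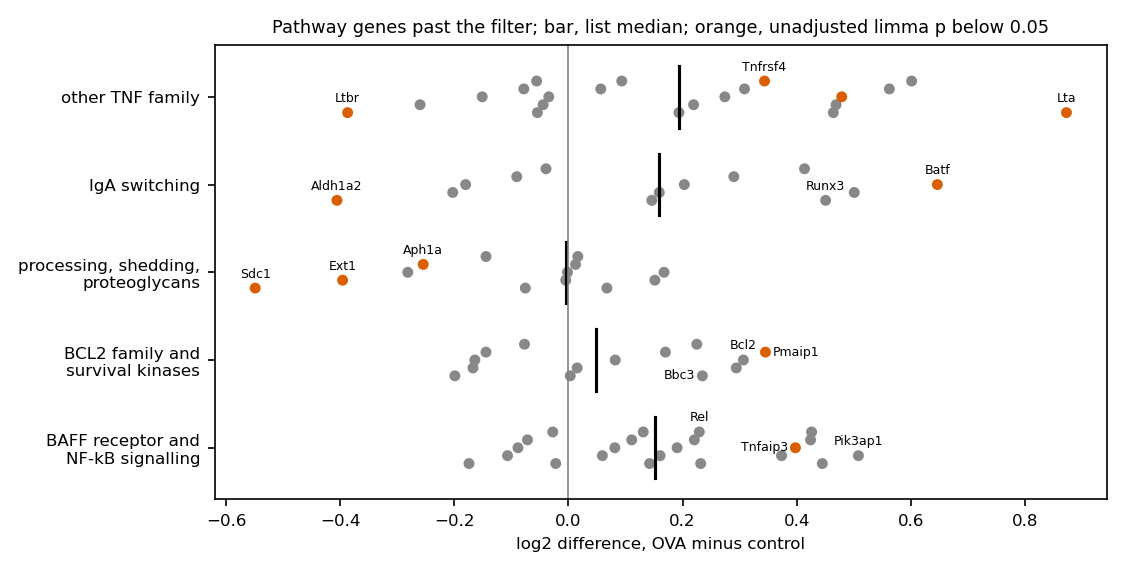
Log2 difference of OVA from control for each gene past the filter in the 5 lists around the BAFF and APRIL receptors, with a bar at the list median, orange for an unadjusted limma p under 0.05 and names on the 3 genes per list with the smallest p. Medians lie between -0.0048 and 0.19, with Lta (0.87) and Sdc1 (-0.55) at the ends.

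Markers of the cells that carry or make these proteins are given beside the members. The 14 B cell genes were all higher in OVA mice, 2 of them with an unadjusted limma p under 0.05 (6.88% of all tested probe sets on that side), as were all 7 germinal centre genes (median 0.74). Their marker means were 6.12 and 6.45 in controls and 6.50 to 7.68 in OVA mice, highest in male OVA 8 and female OVA 12, as for the BAFF receptor and TACI. The 11 plasma cell genes were divided, 5 higher and 6 lower (median -0.0017), with means of 8.63 and 8.70 in controls and 8.49 to 8.71 in OVA mice, lowest in female OVA 2, the array with the lowest BCMA. Among stroma and follicular dendritic cell genes 6 of 10 were higher (median 0.091), and among myeloid genes 3 of 10 (median -0.17). Of 11 T cell genes 10 were higher (median 0.25), and all 8 smooth muscle genes were lower (median -0.22). The part of these cell types in the values of the members was not tested beyond the B cell covariate.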

How the data were processed

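RNA of Peyer's patches from 8 mice was labelled as biotinylated cRNA and hybridised to single-colour Affymetrix arrays, per the labels' protocols. The deposited values are linear intensities, made by the authors with MAS5 per the submitters' processing notes, and no scanner files were used here. The scaling target was not given in the sources used here, nor were other settings. Of 45101 probe sets, 34958 carried 1 gene symbol, 932 several and 9211 none in the platform annotation, and 34754 identifiers matched the RefSeq gene table, which changed 0 symbols.

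Values were taken as log2(intensity + 4.88), where the pseudocount is the 25th percentile of the deposited table, without rescaling, so fold changes of dim probe sets are understated. The 64 control probe sets were left out, and those above the median mean log2 value were tested with limma 3.58.1 (R 4.3.3) in a two-sided fit of treatment and sex on the 8 arrays, adjusted by Benjamini-Hochberg over 22518 probe sets at a threshold of 0.05. The sex difference in the OVA effect came from a fit of the 4 group means, where the spread of a single control is borrowed from the other groups. Values relative to the B cell marker mean and ratios of members were tested by two-sided exact permutation over 28 splits of the 8 arrays. Correlations over the 8 arrays were tested by exact permutation over 40320 pairings, and over fewer pairings where arrays were left out. Fits were tested on simulated data.

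In each of the 5 lists the 3 genes of smallest p were named, and for each member the 5 genes of highest and the 2 of most negative r. The genes and lists were chosen with earlier results of these data known, so they are not independent evidence. Nothing in the labels states whether arrays shared a hybridisation batch. Alternatives covered the pseudocount, filter, scaling, covariates, sexes apart and arrays left out.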

Additional observations from a re-analysis of the deposited data

How the results depend on the processing

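The count of probe sets past the threshold for OVA was 0 under all 22 alternatives, and the BAFF receptor kept a positive OVA difference under all 22 (0.26 to 1.07, limma adjusted p 0.336 to 0.741). BCMA stayed below 0 under its 21 alternatives (-0.23 to -0.035). For BAFF, TACI and the shared probe set the sign depended on the setting, and the cause was not tested. TACI was at -0.098 with the B cell marker mean as covariate, the shared probe set at -0.13 in females alone, and BAFF at -0.017 in males alone. Leaving out 1 array at a time gave OVA differences of -0.017 to 0.33 for BAFF (lowest without female control 7), 0.17 to 0.45 for TACI, 0.60 to 1.07 for the BAFF receptor, -0.23 to -0.13 for BCMA and -0.13 to 0.18 for the shared probe set, which was at -0.13 without male control 8 and -0.0030 without male OVA 5. For sex, BAFF was at 0.0093 in the OVA arrays alone and without either control (-0.18 to 0.0093 without 1 array), TACI ran from -0.048 without female OVA 12 to 0.31, and the BAFF receptor from 0.19 without female OVA 12 to 0.58. The sex difference in the OVA effect ran from -0.0016 (without female OVA 12) to 0.57 for TACI, from 0.16 (without female OVA 12) to 0.79 (without female OVA 2) for the BAFF receptor and from -0.17 to 0.0071 (without male OVA 13) for BCMA. It could not be fitted without a control. Without female OVA 12 and male OVA 8, a setting added after the data were seen, the shared probe set relative to the B cell markers was at 0.0029 and the ratio of BAFF to TACI at 0.062. That ratio ran from -0.26 to 0.029 (without male control 8) when 1 array was left out. The 12 probe sets past the threshold for sex were 4 with the filter at the 75th percentile, where fewer probe sets were tested and BCMA was not, and 9 to 13 without 1 array.

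Of the correlations, those without the 2 farthest arrays turned to r = -0.82 for BAFF and -0.68 for TACI with the plasma cell markers and to -0.34 for BCMA with the myeloid markers, and BAFF with BCMA was at -0.17 in the OVA arrays alone. No paired analysis was made, because each array came from a different mouse and the labels state no pairing of mice. The 2 controls, 1 of each sex, limit every OVA comparison, and the signal of BCMA lay near that of the filter.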
